A study of Mus musculus with 16 samples.

Results

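Axon guidance genes of the ephrin, Slit-Robo and netrin systems were read from hippocampal RNA sequencing of mice bred for high or low activity. The genes were chosen by symbol alone: every Eph receptor, ephrin, Slit and Robo of the table, and the netrins Ntn1, Ntn3, Ntn4 and Ntn5. With Dcc, Neo1, Dscam and the Unc5 family, this made 40 of the 31960 genes with counts. They comprised 25 receptors (9 EphA, 5 EphB, 4 Robo and 7 netrin receptors) and 15 ligands (5 ephrin-A, 3 ephrin-B, 3 Slit and 4 netrin). The mice were 4 females and 4 males of the High Activity strain and 4 females and 4 males of the Low Activity strain. None was treated, all were aged 70 days, and 1 library was made from both hippocampi of each mouse. Each strain was 1 inbred line, H2 for High Activity and L2 for Low Activity, from mice selected over generations for locomotion in an open field. A strain difference therefore compared these lines, and allele, coat colour and every other fixed difference between them cannot be told apart from activity. The question was which guidance genes differed between the strains, and whether they differed in the same way in females and males.

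Guidance molecules tell a growing axon where to turn. Ephrins are tethered to the cell surface and signal to Eph receptor tyrosine kinases on the neighbouring cell, with reverse signals through the ephrin itself. Slits are secreted proteins that repel axons through Robo receptors, and netrins attract axons through Dcc and neogenin (Neo1) or repel them through Unc5 receptors. In the adult hippocampus members of these families remain at synapses and dendritic spines, where several of them act in spine shape and plasticity.

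Total counts per library ran from 20815456 to 28760896, with a median of 25877185. Xist, the RNA that silences 1 X chromosome in female cells, had 16351 to 21333 counts in the 8 female libraries and 8 to 277 in the 8 male libraries, with 225 and 127 in High Activity males 5 and 6, 277 in Low Activity male 13 and at most 18 in the other males. The labelled tissue was checked with markers: 6 hippocampal genes together were at 851 to 920.3 CPM (counts scaled to 1 common library total) in High Activity females, 647 to 966 CPM in High Activity males, 713 to 787 CPM in Low Activity females and 738 to 1039.8 CPM in Low Activity males. Of those, C1ql2, a gene of dentate granule cells, was higher in every High Activity library than in any Low Activity library (log2 fold change for the mean of the sexes 1.01, SE 0.07, edgeR adjusted p = 5.3e-11), and the other 5 were not called in either sex or for the mean. The 8 markers of the thalamus and habenula were uneven among males of both strains. They summed to 442 and 259.9 CPM in High Activity males 6 and 8 and to 111 and 67.7 CPM in males 5 and 7 of that strain, against 221 and 178 CPM in Low Activity males 14 and 16 and 64.2 and 76.5 CPM in males 13 and 15. In females they summed to 73.5 to 149 CPM in High Activity mice, against 69.7 to 79.1 CPM in Low Activity mice. Gpr151, a habenular receptor, was at 12.4 and 10.9 CPM in High Activity males 6 and 8 and at most 2.50 CPM in any other library. For the mean of the sexes 4 of the 8 thalamic and habenular markers were called higher in High Activity mice (Gpr151, Tcf7l2, Lef1 and Chrnb4). None was called lower, and the median log2 fold change of the 8 was 1.09. In males 3 were called higher, and in females none was called. Choroid plexus markers (5 genes) summed to 992 to 4454 CPM in High Activity females, against 129 to 1677 CPM in Low Activity females, and to 2285 to 5263 CPM in High Activity males, against 721 to 3538 CPM in Low Activity males. Of these 5, Ttr was called for the mean of the sexes, at 1.18 (SE 0.36, edgeR adjusted p = 0.0295). For the mean of the sexes 2 of 4 astrocyte markers rose in High Activity mice (Gja1 and Aldh1l1), and 3 of 6 interneuron markers fell (Gad1, Sst and Vip). The part of these cell types and regions in the guidance gene results was not tested. Values are therefore given for each library, and the main counts are also given without High Activity males 6 and 8 and without these and Low Activity males 14 and 16, an alternative chosen after the data were seen. In bulk tissue, fewer cells of a type and less RNA per cell cannot be told apart.

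All 40 guidance genes were detected, and 38 of them averaged at least 1 CPM. Per length, as CPM per kb of annotated exon over all 16 libraries, the most abundant was Efnb3, a transmembrane B-class ephrin, at 51.8 ± 4.80 (SD, n = 16). It was followed by Epha4 at 38.7 ± 5.75, Unc5a at 30.2 ± 2.66, Efna3 at 29.3 ± 1.69 and Slit1 at 26.3 ± 4.36 CPM per kb. The SD ranges of Efnb3 and Epha4 did not overlap, nor did those of Epha4 and Unc5a, whereas those of Unc5a, Efna3 and Slit1 overlapped. Order and gaps rest on this measure of length, which the SD leaves out. Epha4 has 8054 bases of annotated exon but 6328 in its longest transcript, and Epha7 has 9884 and 6746, while Efnb3 has 3183 in both. The least abundant were Epha1, at 0.0835 ± 0.0344 CPM per kb, Efna4, at 0.335 ± 0.0947, and Epha2, at 0.354 ± 0.130. Within a family the members were far apart: Slit1 stood well above Slit3 (6.58 ± 1.09 CPM per kb) and Slit2 (1.17 ± 0.275 CPM per kb), while the 4 netrins lay between 1.23 and 1.95 CPM per kb.

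**Figure D1:**
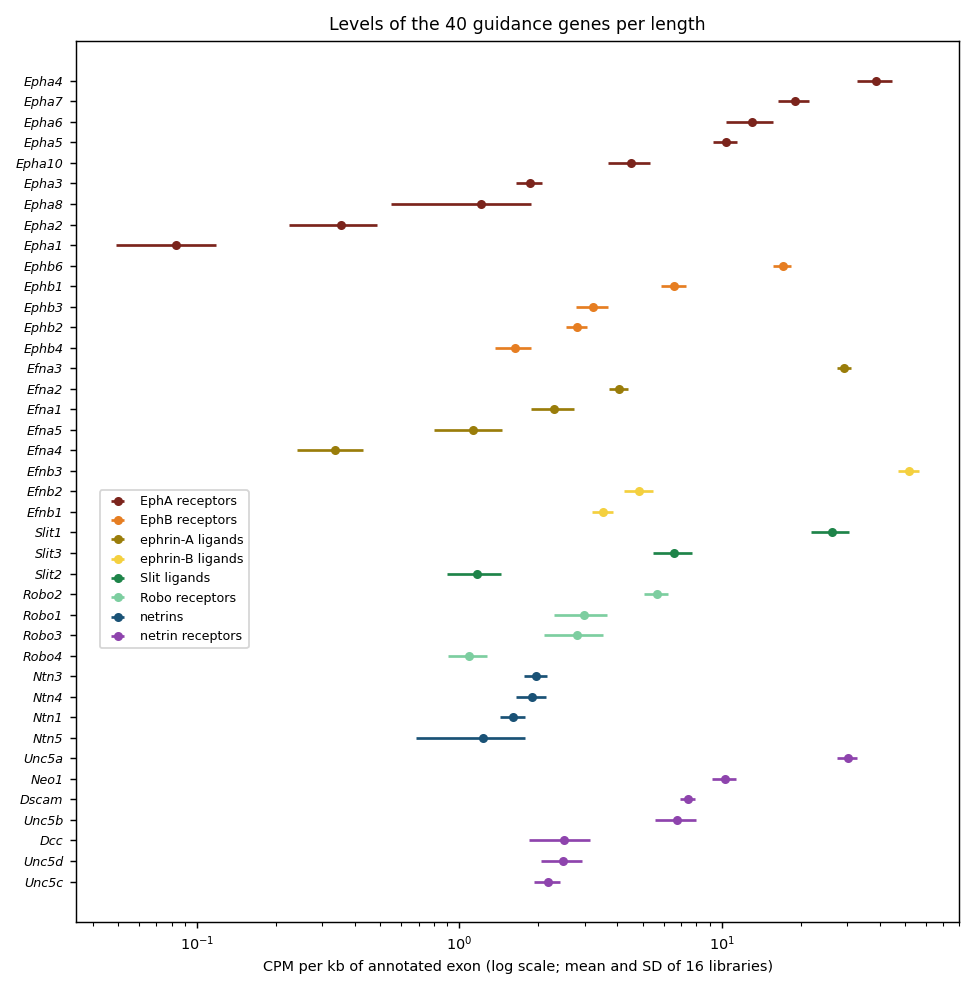
Level of each of the 40 guidance genes per length (CPM per kb of annotated exon, log axis), grouped by role; points are means and bars the SD over all 16 libraries. Efnb3 is highest at 51.8 and Epha1 lowest at 0.0835 CPM per kb.

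Of the 40 genes, 8 showed any strain effect, that is, an adjusted p under 0.05 when strain and its interaction with sex were tested together (edgeR quasi-likelihood F-test, Benjamini-Hochberg over all 31960 genes). They were the receptors Robo1, Robo3, Dcc, Neo1, Unc5b, Epha10 and Ephb1 and the ligand Slit1, so 7 of 25 receptors and 1 of 15 ligands were called. Of all genes 10.3% were called, and of protein-coding genes averaging at least 1 CPM, a group more like these members, 19.8% were, so the members' count was close to that background. Within females 7 members were upregulated in High Activity mice (Robo1, Slit1, Dcc, Neo1, Unc5b, Epha4 and Ephb1) and 1 was downregulated (Epha10). The background for these counts was 3.7% higher and 3.55% lower among all genes, and 7.22% higher and 6.81% lower among protein-coding genes averaging at least 1 CPM. Within males 1 member was upregulated in High Activity mice (Robo1) and 2 were downregulated (Robo3 and Epha10), beside 2.78% higher and 3.25% lower among all genes, and 5.16% and 6.09% among the protein-coding ones. For the mean of the sexes 7 were upregulated and 3 downregulated, beside 5.46% and 5.89% of all genes, and 10% and 11.1% of the protein-coding ones. The counts of the list were not tested against these shares.

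**Figure D2:**
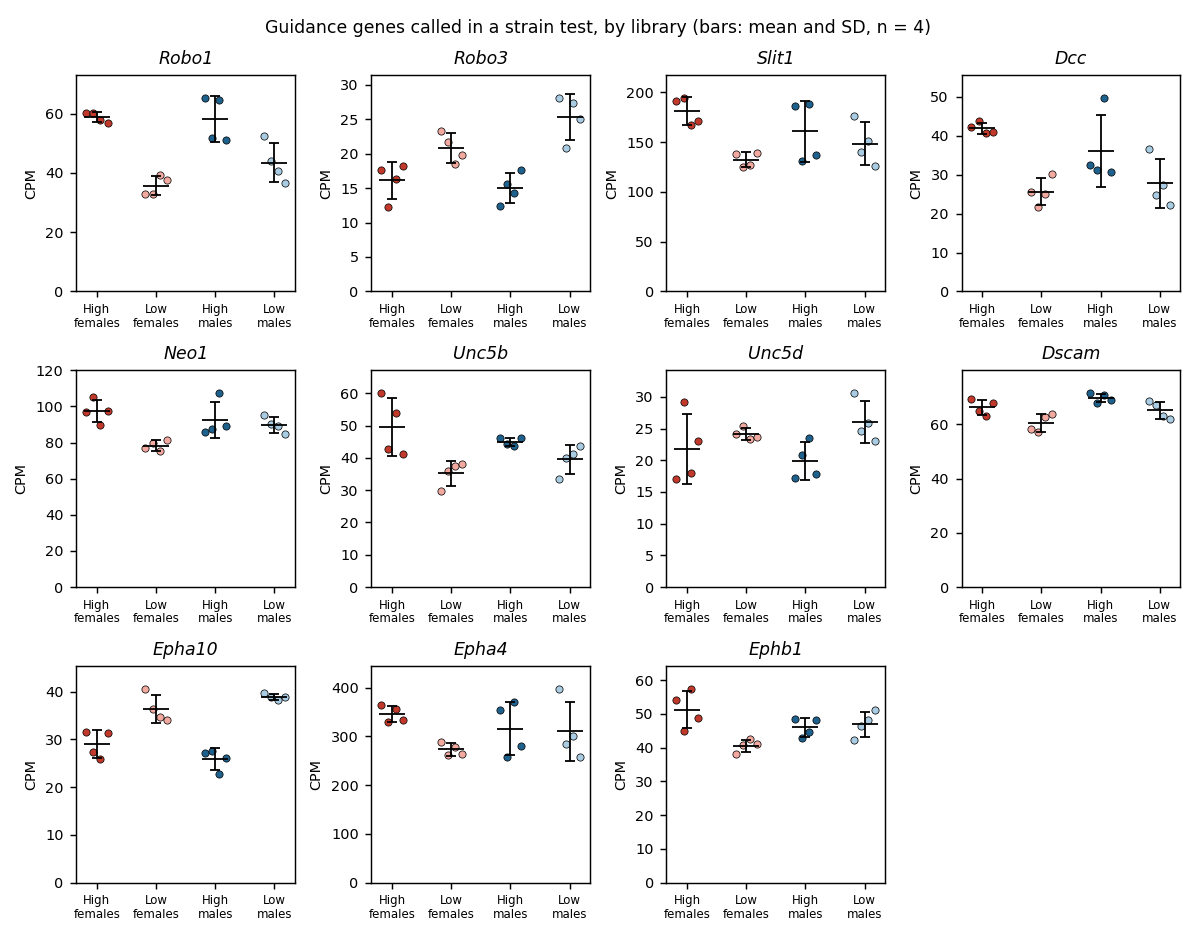
CPM of the 11 guidance genes called in at least 1 strain test, by library; each point is 1 mouse, and the horizontal line and bars are the mean and SD of the 4 mice of a group. Robo3 and Epha10 are lower in every High Activity library than in any Low Activity library of the same sex, and Robo1 is higher in every High Activity female than in any Low Activity female.

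Among the secreted Slit ligands, Slit1 was the one with a strain effect. It was at 191, 195, 167 and 172 CPM in High Activity females, against 138, 125, 128 and 139 CPM in Low Activity females. The female groups did not overlap. Male libraries had 187, 131, 188 and 137 CPM in High Activity mice, against 177, 140.0, 152 and 126 CPM in Low Activity mice, and these groups overlapped, with High Activity males 6 and 8 (131 and 137 CPM) below males 5 and 7. The log2 fold change, High minus Low, was 0.45 (SE 0.10) in females (edgeR adjusted p = 0.00372) and 0.12 (SE 0.10) in males (edgeR adjusted p = 0.606). Slit2 and Slit3, the other secreted Slits, were not called: their log2 fold changes were 0.24 (SE 0.17) and 0.32 (SE 0.12) in females and 0.10 (SE 0.17) and -0.09 (SE 0.12) in males.

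Of the 4 Robo receptors, Robo1 was higher and Robo3 lower in High Activity mice. Robo1, a receptor that carries Slit repulsion, was at 60.4, 60.3, 58.0 and 56.8 CPM in High Activity females, against 33.0, 33.0, 39.5 and 37.6 CPM in Low Activity females. The male values were 65.4, 51.7, 64.7 and 51.1 CPM in High Activity mice, against 52.3, 44.2, 40.8 and 36.7 CPM in Low Activity mice. The female groups were far apart, and in males the groups touched only through Low Activity male 13, the highest of its group at 52.3 CPM, which lay above High Activity males 6 and 8. The log2 fold change was 0.72 (SE 0.09) in females (edgeR adjusted p = 3.45e-06) and 0.42 (SE 0.09) in males (edgeR adjusted p = 0.00303). Robo3, a divergent Robo that in the mouse hindbrain and spinal cord lets commissural axons cross the midline, went the other way. It was at 17.6, 12.3, 16.3 and 18.2 CPM in High Activity females, against 23.3, 21.7, 18.4 and 19.8 CPM in Low Activity females. Among males it stood at 12.4, 15.5, 14.2 and 17.6 CPM in High Activity mice, against 28.1, 20.8, 27.4 and 25.0 CPM in Low Activity mice. Every High Activity library lay below every Low Activity library, although in females the gap was only between 18.2 and 18.4 CPM. Its log2 fold change was -0.37 (SE 0.12) in females, just short of the threshold (edgeR adjusted p = 0.0505), and -0.76 (SE 0.12) in males (edgeR adjusted p = 5.51e-05). Robo2, the most abundant Robo per length and also a Slit receptor, was at 101, 96.4, 102 and 100.2 CPM in High Activity females, against 92.4, 90.2, 98.4 and 83.7 CPM in Low Activity females. In males Robo2 was at 102, 73.6, 102 and 84.5 CPM in High Activity mice, against 119, 92.7, 102 and 93.3 CPM in Low Activity mice. Both sexes overlapped between the strains, and Robo2 was not called (any strain effect, edgeR adjusted p = 0.234). Robo4, the Robo of blood vessel endothelium, was not called either, at a log2 fold change of 0.30 (SE 0.15) in females and -0.09 (SE 0.15) in males.

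The proximal promoters of the genes called in males are shown because these were the members with a strain effect in that sex. Each run is the 300 bases from 250 before to 50 after the RefSeq start on GRCm38.p6, with matches to the GC box GGGCGG, the CCAAT box CCAAT and the TATA box TATAAA on either strand in capitals; adjoining or overlapping matches run together. Of 32851 RefSeq promoters of this length, 35.7% held GGGCGG, 37.4% CCAAT and 13.6% TATAAA, and the median promoter held 7 CpG. A match is a description of the letters. Robo1 lies at chr16:72662899-72663198 on the plus strand, inside the longer GENCODE gene model that starts at 72308306, and holds 15 CpG at 57.0% GC with no match to the 3 motifs. Robo3 lies at chr9:37433126-37433425 on the minus strand and holds 17 CpG at 63.3% GC with 3 GC box matches. Epha10, described further on, lies at chr4:124881535-124881834 on the plus strand, also inside its GENCODE gene model, which starts at 124880899. It holds 21 CpG at 65.3% GC with 2 GC box and 2 CCAAT box matches. All 3 held more CpG than the median promoter.
Robo1: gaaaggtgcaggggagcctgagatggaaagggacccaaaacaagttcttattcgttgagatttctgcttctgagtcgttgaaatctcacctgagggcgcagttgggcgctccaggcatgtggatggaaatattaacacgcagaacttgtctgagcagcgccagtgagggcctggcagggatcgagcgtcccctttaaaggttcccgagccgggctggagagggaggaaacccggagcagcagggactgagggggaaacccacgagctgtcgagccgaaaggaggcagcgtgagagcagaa
Robo3: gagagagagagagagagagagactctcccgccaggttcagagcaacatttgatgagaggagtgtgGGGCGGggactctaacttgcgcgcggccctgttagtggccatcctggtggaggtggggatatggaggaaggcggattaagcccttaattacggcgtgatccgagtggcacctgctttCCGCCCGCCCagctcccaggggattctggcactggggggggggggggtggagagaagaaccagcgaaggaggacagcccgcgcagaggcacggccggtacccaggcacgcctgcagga
Epha10: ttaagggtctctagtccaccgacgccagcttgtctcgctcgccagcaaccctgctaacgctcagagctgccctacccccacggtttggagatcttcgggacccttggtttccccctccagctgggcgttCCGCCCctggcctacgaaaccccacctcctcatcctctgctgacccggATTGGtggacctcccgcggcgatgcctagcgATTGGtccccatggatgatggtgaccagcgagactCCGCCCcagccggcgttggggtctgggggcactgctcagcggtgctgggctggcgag

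Of the 4 netrins, 0 showed any strain effect in the edgeR test or in DESeq2. Ntn5 alone had an unadjusted edgeR p under 0.05 (0.00864), and it was called in some other settings. Ntn3, the highest netrin per length, was at 10.5, 9.93, 11.2 and 10.3 CPM in High Activity females, against 10.1, 11.6, 11.3 and 10.3 CPM in Low Activity females. In males it was at 8.62, 9.91, 9.52 and 7.64 CPM in High Activity mice, against 9.87, 9.83, 10.1 and 8.94 CPM in Low Activity mice, so the groups overlapped in both sexes. Ntn3 shares 89 exon bases on the same strand with Tbc1d24, which had 36034 counts against 4106 for Ntn3, so its counts are uncertain. Ntn1, the classical diffusible netrin, had log2 fold changes of 0.07 (SE 0.11) in females and 0.10 (SE 0.11) in males. Ntn5, singled out here after its values were seen, had the largest female difference of any member, -0.96 (SE 0.30, edgeR adjusted p = 0.0502), and 0.35 (SE 0.31) in males. It averaged only 2.13 ± 1.02 CPM in High Activity females and 4.17 ± 1.15 CPM in Low Activity females (SD, n = 4 each), and 519 of its exon bases are shared with Sec1 on the opposite strand.

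Among the 7 netrin receptors, Dcc, Neo1 and Unc5b had a strain effect, and all were higher in High Activity mice for the mean of the sexes. Dcc, the receptor for netrin attraction, was at 42.3, 43.8, 40.6 and 41.1 CPM in High Activity females, against 25.6, 21.8, 25.0 and 30.3 CPM in Low Activity females, with no overlap. Male libraries had 32.6, 31.3, 49.8 and 30.6 CPM in High Activity mice, against 36.6, 24.8, 27.5 and 22.2 CPM in Low Activity mice. The male groups overlapped, with male 7 far above the other High Activity males and male 13 highest of the Low Activity males. The log2 fold change was 0.71 (SE 0.13) in females (edgeR adjusted p = 0.000737) and 0.38 (SE 0.13) in males, where it missed the threshold (edgeR adjusted p = 0.104). Neo1, neogenin, which binds netrins and the repulsive guidance molecules, was at 97.0, 105, 89.8 and 97.5 CPM in High Activity females, against 76.7, 79.9, 75.1 and 81.5 CPM in Low Activity females. In males Neo1 was at 85.8, 87.6, 107 and 89.2 CPM in High Activity mice, against 95.0, 90.0, 89.0 and 84.6 CPM in Low Activity mice. Its groups were apart in females and overlapped in males, at log2 fold changes of 0.31 (SE 0.06, edgeR adjusted p = 0.0016) and 0.04 (SE 0.06).

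Unc5b, an Unc5 receptor of neurons and blood vessels, was at 60.0, 42.9, 53.9 and 41.3 CPM in High Activity females, against 29.7, 35.8, 37.5 and 38.0 CPM in Low Activity females. The male values were 46.0, 44.2, 43.8 and 46.1 CPM in High Activity mice, against 33.4, 40.0, 41.2 and 43.8 CPM in Low Activity mice. The female groups did not overlap, and in males they met only at 43.8 CPM, the value of the lowest High Activity and the highest Low Activity male. The log2 fold change was 0.49 (SE 0.10) in females (edgeR adjusted p = 0.00134) and 0.18 (SE 0.10) in males (edgeR adjusted p = 0.355). Of 6 endothelial markers, 5 were called higher in High Activity mice for the mean of the sexes and none lower. By sex, 1 of these markers was called higher in females (list median 0.21) and 2 in males (list median 0.30). For Unc5b the female strain difference minus the male one was 0.31 (SE 0.14), which was not called (edgeR adjusted p = 0.451). The 6 markers summed to 149 to 171 CPM in High Activity females, against 126 to 139 CPM in Low Activity females. Male sums were 134 to 179 CPM in High Activity mice, against 119 to 142 CPM in Low Activity mice. The part of the endothelium in the Unc5b values was not tested.

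The remaining netrin receptors differed less. Unc5d was at 17.0, 29.1, 17.9 and 23.0 CPM in High Activity females, against 24.1, 25.4, 23.3 and 23.7 CPM in Low Activity females, and the groups overlapped. Among males it stood at 17.2, 20.9, 23.5 and 17.8 CPM in High Activity mice, against 30.6, 24.6, 25.9 and 23.0 CPM in Low Activity mice, where only High Activity male 7 reached the Low Activity range. It was called for the mean of the sexes alone, at -0.27 (SE 0.09, edgeR adjusted p = 0.0461). Dscam, an immunoglobulin adhesion receptor that also binds netrin, was at 69.4, 64.9, 63.0 and 67.7 CPM in High Activity females, against 58.4, 57.1, 62.6 and 63.7 CPM in Low Activity females. In males Dscam was at 71.4, 67.8, 70.6 and 69.1 CPM in High Activity mice, against 68.7, 67.0, 63.0 and 62.1 CPM in Low Activity mice, and the strains overlapped in both sexes. It too was called for the mean alone, at 0.12 (SE 0.04, edgeR adjusted p = 0.0445). Of 27 alternative settings, the Dscam call was kept in 13 and the Unc5d call in 9. Unc5a, the most abundant netrin receptor per length, was at 126, 133, 127 and 125 CPM in High Activity females, against 132, 126, 136 and 130.2 CPM in Low Activity females. In males Unc5a was at 139, 97.0, 129 and 108 CPM in High Activity mice, against 141, 126, 122 and 120.1 CPM in Low Activity mice, with overlap in both sexes and no call (any strain effect, edgeR adjusted p = 0.632). Unc5c, another receptor for netrin repulsion, was higher in every High Activity female than in any Low Activity female, but its log2 fold change of 0.25 (SE 0.08) missed the threshold (edgeR adjusted p = 0.0722).

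Neither the A-class nor the B-class ephrins showed a strain effect in the edgeR test or in DESeq2 (0 of 5 and 0 of 3). Efnb3 alone had an unadjusted edgeR p under 0.05 (0.0243), and it was called in some other settings. Efnb3, the most abundant member per length, was at 205, 176, 182 and 158 CPM in High Activity females, against 156, 155, 151 and 169 CPM in Low Activity females. In males it was at 164, 154, 152 and 163 CPM in High Activity mice, against 146, 165, 160.1 and 183 CPM in Low Activity mice. The groups overlapped in both sexes, at log2 fold changes of 0.19 (SE 0.07) in females and -0.05 (SE 0.07) in males. Efna3, the most abundant of the lipid-anchored A-class ephrins per length, was at 72.2, 71.2, 68.3 and 67.0 CPM in High Activity females, against 81.4, 75.2, 75.1 and 73.1 CPM in Low Activity females. In males Efna3 was at 70.8, 65.8, 71.9 and 67.6 CPM in High Activity mice, against 70.0, 75.3, 66.2 and 69.5 CPM in Low Activity mice. High Activity females were all lower than Low Activity females, by a log2 fold change of -0.13 (SE 0.05) that was not called (edgeR adjusted p = 0.163), and the males overlapped. Among the others, Efnb2 was lower in every High Activity male than in any Low Activity male, also without a call, at -0.09 (SE 0.10).

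Of the 9 EphA and 5 EphB receptors, Epha10, Epha4 and Ephb1 were called in at least 1 test. Epha10, an EphA receptor whose kinase domain is thought to be inactive, was at 31.6, 27.3, 25.8 and 31.3 CPM in High Activity females, against 40.6, 36.4, 34.8 and 34.0 CPM in Low Activity females. Male libraries had 27.1, 27.6, 22.6 and 26.1 CPM in High Activity mice, against 39.8, 38.9, 38.2 and 38.9 CPM in Low Activity mice. All 8 High Activity libraries lay below all 8 Low Activity libraries. The log2 fold change was -0.33 (SE 0.07) in females (edgeR adjusted p = 0.00437) and -0.59 (SE 0.07) in males (edgeR adjusted p = 3.46e-06). Epha4, which binds both classes of ephrin and acts in dendritic spines, was at 364, 329.5, 357 and 335 CPM in High Activity females, against 289, 263, 278 and 263 CPM in Low Activity females. The male values were 353, 258, 370.2 and 281 CPM in High Activity mice, against 398, 284, 302 and 258 CPM in Low Activity mice. The female groups did not overlap, whereas in males both groups were wide: High Activity males 6 and 8 were low, and Low Activity male 13 was the highest of all libraries. It was called in females, at 0.34 (SE 0.10, edgeR adjusted p = 0.0373), a call kept in 20 of 28 alternative settings, and in males its log2 fold change was 0.03 (SE 0.10).

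Ephb1, a B-class Eph receptor kinase, was at 54.0, 44.9, 57.4 and 48.8 CPM in High Activity females, against 38.2, 40.8, 42.5 and 41.0 CPM in Low Activity females. Among males it stood at 48.4, 42.8, 44.6 and 48.1 CPM in High Activity mice, against 42.2, 46.4, 48.3 and 51.0 CPM in Low Activity mice. The strains were apart in females and overlapped in males, at log2 fold changes of 0.34 (SE 0.07, edgeR adjusted p = 0.00233) and -0.03 (SE 0.07). Ephb6, the most abundant EphB receptor per length and one that lacks kinase activity, was at 61.0, 62.1, 62.9 and 72.3 CPM in High Activity females, against 64.1, 73.0, 70.3 and 68.4 CPM in Low Activity females. In males Ephb6 was at 56.9, 67.6, 69.2 and 59.5 CPM in High Activity mice, against 63.1, 60.9, 57.9 and 61.6 CPM in Low Activity mice. The strains overlapped in both sexes and Ephb6 was not called (any strain effect, edgeR adjusted p = 0.563). Epha5 and Epha7, forebrain EphA receptors at 10.4 and 19.0 CPM per kb, had log2 fold changes of 0.08 (SE 0.08) and 0.02 (SE 0.10) in females and -0.20 (SE 0.08) and -0.24 (SE 0.10) in males, without a call. Over the 29 members called in no strain test, the log2 fold change ran from -0.96 to 0.49 in females, from -0.48 to 0.42 in males and from -0.35 to 0.34 for the mean of the sexes.

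Counted by library alone, 10 members were higher in every High Activity female than in any Low Activity female and 3 were lower in the same sense, against 6.96% and 6.79% of all genes, and 12.6% and 12.9% of protein-coding genes averaging at least 1 CPM. The 10 were Epha4, Ephb1, Dcc, Neo1, Unc5b, Unc5c, Robo1, Robo4, Slit1 and Slit3, and the 3 were Epha10, Efna3 and Robo3. In males 0 members were higher and 3 lower (Epha10, Efnb2 and Robo3), against 4.41% and 5.12% of all genes, and 7.41% and 9.14% of the protein-coding ones. Without High Activity males 6 and 8, 3 members were higher (Robo1, Slit1 and Dscam) and 4 lower (Epha10, Robo3, Efnb2 and Efna2), against 9.15% and 9.45% of all genes, and 12.7% and 16.4% of the protein-coding ones. Over both sexes together, 0 members had every High Activity library above every Low Activity library and 2, Epha10 and Robo3, had every one below, against 1.54% and 1.73% of all genes.

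**Figure D3:**
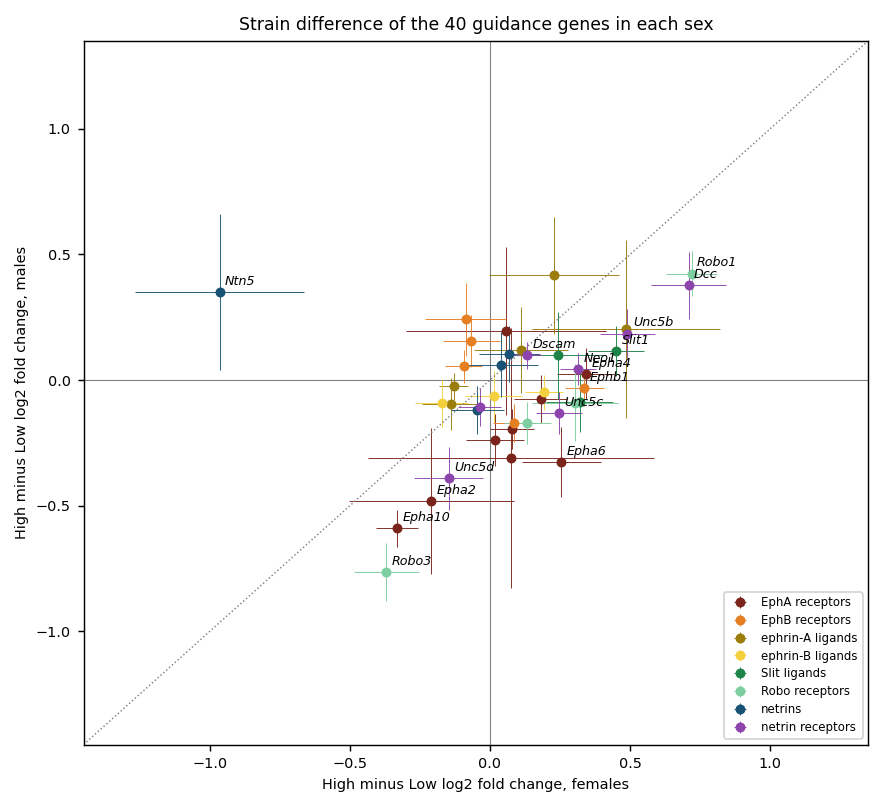
Log2 fold change, High minus Low Activity, of each of the 40 guidance genes in females (horizontal axis) and in males (vertical axis), coloured by role, with standard errors as bars and equal values on the dotted line. Robo1 and Dcc lie high in both sexes (0.72 and 0.42, 0.71 and 0.38), Robo3 and Epha10 low in both, and 28 of the 40 points lie below the dotted line.

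The strain difference was more positive in females than in males for most members. The interaction, the female strain difference minus the male one on the log2 scale, was above 0 for 28 of 40 members, with a median of 0.26, against a median of -0.000822 over protein-coding genes averaging at least 1 CPM. The members' median strain difference was 0.08 in females and -0.04 in males, and 23 of 40 had the same sign in both. No member passed the adjusted threshold for the interaction (smallest edgeR adjusted p = 0.163, Ephb1), nor did any gene of the table, a background of 0% (smallest edgeR adjusted p = 0.0886), and DESeq2 called 0 members with 13 at an unadjusted p under 0.05. At an unadjusted p under 0.05, 16 members passed, 15 above 0 and 1 below 0 (Ntn5), beside 10% of all genes and 17% of protein-coding genes averaging at least 1 CPM. Of the 8 members with any strain effect, 7 met that unadjusted limit, all but Dcc (unadjusted p = 0.0903), beside 31.7% of all genes with any strain effect, a class whose test already holds the interaction term. Ephb1 had the smallest unadjusted p, 0.00108, at an interaction of 0.37 (SE 0.10). Neo1 followed among the called members, at 0.27 (SE 0.09, unadjusted p = 0.00577). Outside the 8 members with any strain effect, the smallest unadjusted p were those of Unc5c, at an interaction of 0.38 (SE 0.12, unadjusted p = 0.00352), Ntn5, at -1.31 (SE 0.43, unadjusted p = 0.00544), and Epha6, an EphA receptor of forebrain neurons, at 0.58 (SE 0.20, unadjusted p = 0.00686), all singled out after their values were seen. Ntn5 had the largest interaction of any member in size, and it ran the other way.

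The interaction can also be read as a sex difference that turned between the strains. Male minus female, 33 of 40 members were below 0 in High Activity mice, at a median log2 difference of -0.13, and 25 of 40 were above 0 in Low Activity mice, at a median of 0.10. Over protein-coding genes averaging at least 1 CPM these medians were -0.00483 and -0.00182. No single member was called in either strain, at a background of 0.0344% of all genes in High Activity mice and 0.235% in Low Activity mice, and 8 members in High Activity and 12 in Low Activity mice had an unadjusted p under 0.05 (4 and 9 in DESeq2, which called 0 in both strains). The smallest edgeR adjusted p of a member was 0.817 in High Activity mice and 0.146 in Low Activity mice. Robo1 showed the pattern on 1 side: males averaged 58.2 ± 7.89 CPM and females 58.9 ± 1.76 CPM in High Activity mice, while males averaged 43.5 ± 6.64 CPM and females 35.8 ± 3.29 CPM in Low Activity mice (SD, n = 4 each), log2 differences of -0.01 (SE 0.09) and 0.28 (SE 0.09). Ephb1 showed it on both sides, with males at 46.0 ± 2.70 CPM and females at 51.3 ± 5.53 CPM in High Activity mice, and males at 47.0 ± 3.71 CPM and females at 40.6 ± 1.79 CPM in Low Activity mice. The comparisons within the strains and within the sexes share the same 16 libraries.

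**Figure D4:**
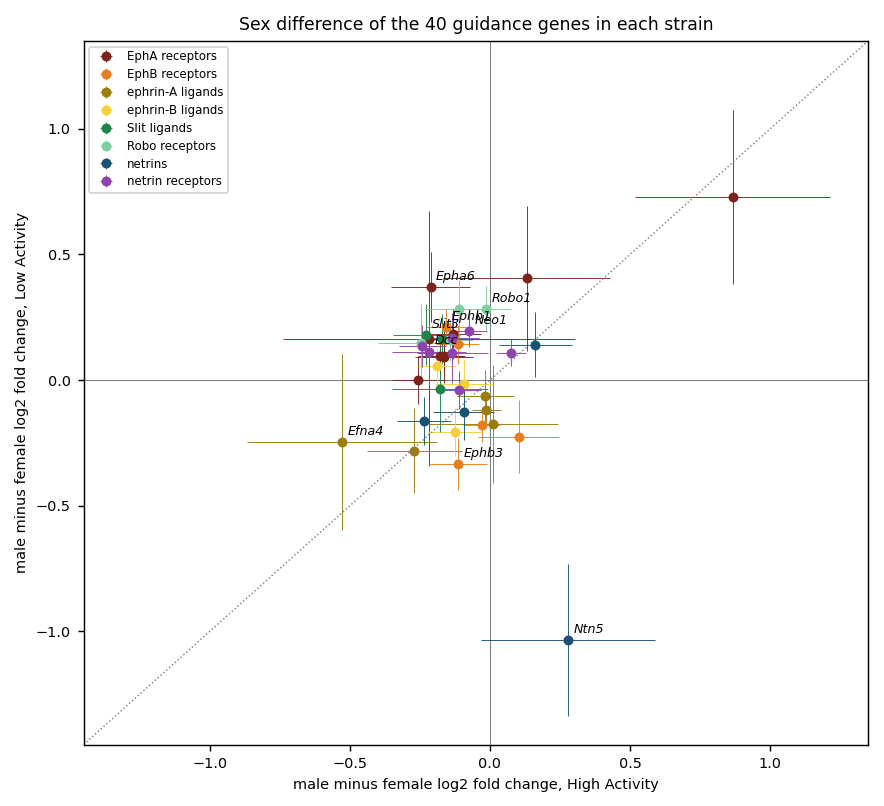
Log2 difference, male minus female, of each of the 40 guidance genes in High Activity mice (horizontal axis) and in Low Activity mice (vertical axis), coloured by role, with standard errors as bars and equal values on the dotted line. Most points lie left of 0 in High Activity mice (33 of 40) and above 0 in Low Activity mice (25 of 40), and none was called in either strain.

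The size of this pattern moved with a few male libraries. Without High Activity males 6 and 8, the pair with the highest sums of thalamic and habenular markers, the members' median male strain difference was 0.02, the median male minus female difference in High Activity mice was -0.03, the median interaction was 0.14, and 9 rather than 16 members had an unadjusted interaction p under 0.05. Any strain effect was then called for 11 members, a difference in females for 12 and one for the mean of the sexes for 12. Called in males were 5 members, the same 3 and also Dcc, at 0.57 (SE 0.13, edgeR adjusted p = 0.00581), and Slit1, at 0.34 (SE 0.08, edgeR adjusted p = 0.00911). That step leaves out libraries of 1 strain alone. Without Low Activity males 14 and 16 as well, which leaves 2 males of each strain, the median male strain difference was 0.04, the median male minus female difference in High Activity mice was -0.03 and the median interaction 0.17, with 16 members at an unadjusted p under 0.05. Any strain effect was called for 15 members, a difference in females for 14 and one for the mean of the sexes for 10. In males 4 were called, the same 3 and Unc5d, at -0.47 (SE 0.13, edgeR adjusted p = 0.0253), while Dcc was at 0.36 (SE 0.12, edgeR adjusted p = 0.0678) and Slit1 at 0.19 (SE 0.08, edgeR adjusted p = 0.193). Robo3 then passed the interaction test, at 0.69 (SE 0.15, edgeR adjusted p = 0.0222), and 10 members were called for male minus female in Low Activity mice. For these fits with fewer libraries the share of all genes called was not counted, so their counts of called members have no background. Without Low Activity male 13 the median male minus female difference in Low Activity mice was 0.04 and the median interaction 0.18. The members' longest transcripts had a median of 4872.5 bases, against 3121 bases for protein-coding genes, and with each library offset for the length and GC content of transcripts the median interaction was 0.11, with 7 members at an unadjusted p under 0.05, and the median male minus female difference in Low Activity mice was 0.0025. The differences of Robo1, Robo3 and Epha10 in males were as large or larger without High Activity males 6 and 8: 0.58 (SE 0.09), -0.93 (SE 0.13) and -0.64 (SE 0.09), and 0.48 (SE 0.09), -1.06 (SE 0.13) and -0.64 (SE 0.10) without Low Activity males 14 and 16 as well.

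**Figure D5:**
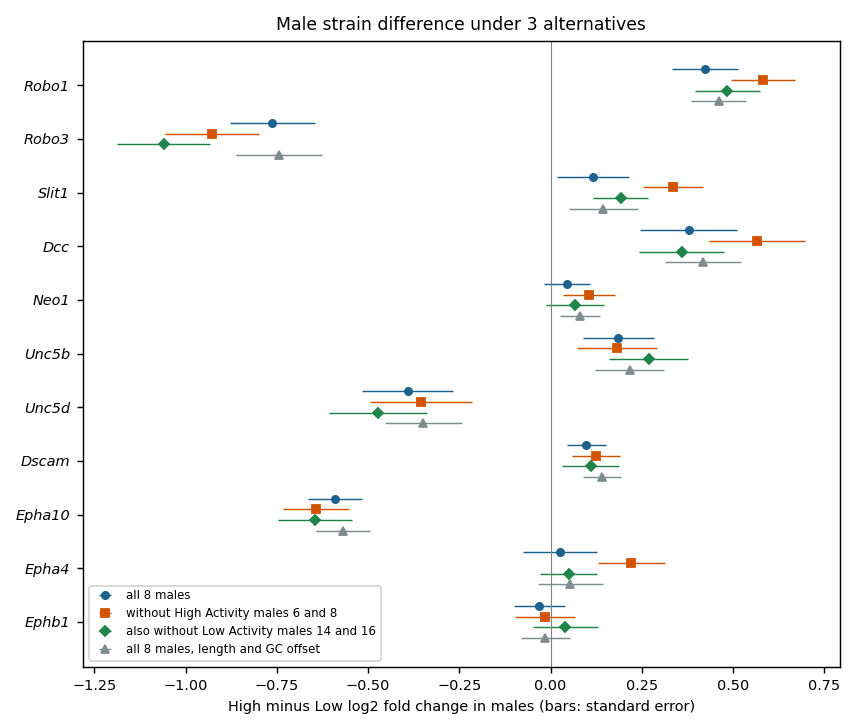
Log2 fold change, High minus Low Activity, in males for the 11 called guidance genes with all 8 males (circles), without High Activity males 6 and 8 (squares), also without Low Activity males 14 and 16 (diamonds) and with all 8 males and an offset for transcript length and GC content (triangles); bars are standard errors. Slit1 is at 0.34 without High Activity males 6 and 8, at 0.19 also without Low Activity males 14 and 16 and at 0.12 with all males, Epha4 is at 0.22, 0.05 and 0.03 in the same order, and Robo3 and Epha10 stay below 0.

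Partners of these systems inside the cell, at its surface and outside it were counted from lists of the same pathways, beside 19.8% of protein-coding genes averaging at least 1 CPM with any strain effect and 10% higher and 11.1% lower for the mean of the sexes. The counts of these lists were not tested against those shares. Of 18 Eph and ephrin partners, 7 had any strain effect, and for the mean of the sexes 1 was higher and 5 lower in High Activity mice, at a list median of -0.04 beside -0.01 for protein-coding genes averaging at least 1 CPM. Ptprf, a receptor tyrosine phosphatase, rose by 0.34 (SE 0.05), past the edgeR threshold, and the 5 lower partners are not named here. Of 14 Slit and Robo partners, 3 had any strain effect, and for the mean 0 were higher and 1 was lower: Gpc1, the proteoglycan glypican that binds Slit, at -0.18 (SE 0.04, edgeR adjusted p = 0.00471). In males 3 of the 14 were called lower, beside 6.09% of protein-coding genes averaging at least 1 CPM, and in females none was called. Of 16 netrin partners, 3 had any strain effect, with 3 higher and 1 lower for the mean. Dock1, a Rac activator downstream of Dcc, was called in females at 0.49 (SE 0.07, edgeR adjusted p = 2.74e-05) and stood at 0.10 (SE 0.07) in males, and Draxin, a secreted ligand of Dcc, was lower for the mean at -0.70 (SE 0.17, edgeR adjusted p = 0.00464). Of 15 cytoskeletal effectors shared by the 3 systems, 7 had any strain effect, with 1 higher and 3 lower for the mean, among them the Ena/VASP proteins Evl at -0.16 (SE 0.04) and Enah at 0.11 (SE 0.03).

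The genes lay on 16 chromosomes, with 6 on chromosome 16 (Robo1, Robo2, Epha3, Epha6, Ephb3 and Dscam), 5 on chromosome 4 and 4 on chromosome 9. In the GENCODE M21 annotation of GRCm38, called genes on the plus strand were Robo1 (ENSMUSG00000022883) at chr16:72308306-73046095 and Epha10 (ENSMUSG00000028876) at chr4:124880899-124917800. On the minus strand were Robo3 (ENSMUSG00000032128) at chr9:37415669-37433246, Slit1 (ENSMUSG00000025020) at chr19:41600257-41743665, Neo1 (ENSMUSG00000032340) at chr9:58874687-59036441, Unc5b (ENSMUSG00000020099) at chr10:60762593-60831581, Unc5d (ENSMUSG00000063626) at chr8:28646717-29219636, Dscam (ENSMUSG00000050272) at chr16:96590840-97170752, Epha4 (ENSMUSG00000026235) at chr1:77367185-77515088 and Ephb1 (ENSMUSG00000032537) at chr9:101922128-102354693. Dcc lies on chromosome 18. Robo1 and Robo2 are 845.7 kb apart, and of this pair Robo1 was called. Robo3 and Robo4 lie tail to tail, 553 bases apart, and of this pair Robo3 was called. Efna1, Efna3 and Efna4 lie within 66.3 kb, and none was called. Among protein-coding genes averaging at least 1 CPM within 1 Mb of a member, a class in which 19.8% had any strain effect over the whole table, that effect was called for 0 of 1 neighbour of Robo1, 2 of 16 of Robo3, 8 of 28 of Slit1, 1 of 3 of Dcc, 5 of 24 of Neo1, 2 of 23 of Unc5b, 2 of 19 of Epha10 and 3 of 15 of Ephb1, the members with any strain effect themselves.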

How the data were processed

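RNA from both hippocampi of each of 16 mice was sequenced, 1 library per mouse and 4 per group, as the study's methods state. After trimming with cutadapt, the authors mapped the reads to mm10 with HISAT2 and used RSEM for the expected count of each gene, dropping genes at 0 in every library. They deposited these expected counts for 31960 genes, not normalized. The labels call the libraries strand-specific, and whether the counting used strand is not given in the sources used here, so genes that overlap an antisense gene are uncertain. The authors' own test was DESeq2 1.30.1.

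Symbols, positions and exon lengths came from the GENCODE M21 annotation (GRCm38), which lacked 61 of the identifiers. The deposited counts were rounded to whole numbers, scaled with TMM factors and tested in edgeR 4.0.16 under R 4.3.3 (quasi-likelihood F-tests, strain, sex and their interaction, all 16 libraries, all 31960 genes, no further filter). The Benjamini-Hochberg adjustment ran across the whole table, at a threshold of 0.05. A strain effect is called sex-dependent in the study by an unadjusted interaction p, which is why unadjusted counts are given. CPM values used the same factors, and CPM per kb the summed length of the annotated exons. The fit was first tested on simulated data. P-values measure the spread between mice of a strain, each strain being 1 inbred line.

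The members and the gene lists were chosen with earlier results of these data known. Every library is given for each member called in a strain test or in the interaction and for the highest member per length of each role, 17 in all, and other members by ranges. From each pathway list up to 4 genes with the smallest p for any strain effect could be named. Alternatives were filterByExpr (17805 genes and all 40 members passed), RLE, upper-quartile or no factors, DESeq2 1.42.0, limma-voom (limma 3.58.1), the newer quasi-likelihood method, fits to each sex alone, p-values adjusted among protein-coding genes, offsets for GC content and transcript length (splines of 5 degrees of freedom), leaving out each library, and leaving out High Activity males 6 and 8. Leaving out these and Low Activity males 14 and 16 was added after the data were seen. Promoters came from RefSeq on GRCm38.p6, where 35 of 40 members had an entry.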

Additional observations from a re-analysis of the deposited data

Results flagged for a closer look

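Among the 17 genes given library by library, each in 4 groups, 3 of 68 groups held a mouse further from its group than Dixon's limit for 4 values allows. Chance alone gives about 1 such group in 20. Dcc was at 49.8 CPM in High Activity male 7, against 32.6, 31.3 and 30.6 CPM in the other High Activity males. Neo1 was at 107 CPM in the same mouse, against 85.8, 87.6 and 89.2 CPM in the other High Activity males. Ephb6 was at 72.3 CPM in High Activity female 4, against 61.0, 62.1 and 62.9 CPM in the other High Activity females.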

How the results depend on the processing

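The 8 members with any strain effect stayed called in all 27 alternatives, and no called difference of a member changed sign. Uncalled differences near 0, such as those of Epha4, Ephb1 and Neo1 in males, changed sign in some. So did some larger uncalled ones, such as that of Efna5 in males (0.42), in 1 of 28 alternatives. Leaving out 1 library gave 8 to 13 members with any strain effect (13 without Low Activity male 16) and 3 to 5 called in males (5 without High Activity male 7). The same step gave 0 to 2 for the interaction (2, Epha6 and Neo1, without High Activity male 7). For any strain effect, some alternatives also called a netrin or an ephrin. Ntn5 was called with p-values adjusted among protein-coding genes and without some libraries. Efnb3 was called with the length and GC offset and also without some libraries, and Efnb2 without High Activity female 2. Females fitted alone gave 14 calls, among them Ntn5 and Efnb3. In males, 5 were called with the length and GC offset (also Dcc and Unc5d) and 5 without High Activity males 6 and 8. Without those libraries 4 members were called between males and females of the Low Activity strain (Epha6, Ephb3, Ntn5 and Robo1), against 0 with them. The libraries left out there are in neither group of that comparison, but all groups share an estimate of the spread. Without these and Low Activity males 14 and 16, 15 members had any strain effect, 14 were called in females, 1 (Robo3) for the interaction and 10 for males against females of the Low Activity strain. The share of all genes called under each alternative was not counted, so these counts have no background beside them. The causes of these changes were not tested. Of the called differences, those of Epha4 in females (kept in 20 of 28 alternatives), Ephb1 (14 of 27), Dscam (13 of 27) and Unc5d (9 of 27) for the mean of the sexes were lost in some. The other strain calls of the members were kept in every alternative; those of the pathway partners were not recomputed. No paired analysis was possible because the replicate numbers of the groups are not shared. Epha1 and Efna4, which averaged under 1 CPM, were too shallow for small differences to be seen.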
